A study of Mus musculus with 13 samples.

Results

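The circadian clock genes described here are 10 of the 20971 genes measured in mouse cortex: Arntl, Per1, Per2, Per3, Cry1, Nr1d1, Nr1d2, Dbp, Ciart and Bhlhe41. They were taken by gene symbol, and all 10 were found. RNA was sequenced from 7 APPPS1;Apoe-/- libraries and 6 APPPS1 libraries, all from mice of the C57BL/6 strain aged 6 months. By their labels both groups carry the APPPS1 transgenes (APPPS1-21 in the series' design). These drive mutant human APP and presenilin 1 from the mouse Thy1 promoter in neurons and lead to amyloid plaques in the cortex. The APPPS1;Apoe-/- mice also lack apolipoprotein E, the main lipid carrier of the brain. No group labelled as lacking the transgenes was analysed here, so each comparison is between 2 genotypes whose labels both include them. The labels give neither a time of tissue collection nor a batch, and the question followed here is whether the clock genes differed between the groups or between single libraries.

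The clock of mammalian cells is a feedback loop that runs for about a day. The transcription factors BMAL1, encoded by Arntl, and CLOCK bind E-boxes and switch on the Per and Cry genes, whose proteins accumulate and block their own activators. In a second loop, BMAL1 and CLOCK drive Nr1d1 and Nr1d2, which encode the repressors REV-ERB alpha and REV-ERB beta, and these silence Arntl through ROR elements. Arntl RNA therefore runs roughly opposite to that of Nr1d1 and of output genes such as Dbp in most mouse tissues, the cortex included. The position of these genes relative to each other is thus known to change over the day within one animal.

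Members of the loop carry different elements around their start sites, and a stretch is shown for each of 3 elements, from RefSeq's promoter table (assembly GRCm38.p6, that is mm10). Windows of 250 bases before to 50 bases after a start were available for 9 of the 10 genes, 11 windows in all. Per2 was not matched. The first stretch lies before Ciart, the second before Per3, and the third inside the window of the second start site of Arntl. Capitals mark the E-box CACGTG in Ciart, the D-box TTATGNAA in Per3 and the ROR element TAGGTCA in Arntl.

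Ciart, chr3:95882252-95882478, minus strand: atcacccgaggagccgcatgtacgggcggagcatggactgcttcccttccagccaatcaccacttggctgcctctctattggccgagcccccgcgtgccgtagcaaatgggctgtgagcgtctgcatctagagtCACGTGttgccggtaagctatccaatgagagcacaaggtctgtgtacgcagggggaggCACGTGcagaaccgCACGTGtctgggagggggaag

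Per3, chr4:151044666-151044915, minus strand: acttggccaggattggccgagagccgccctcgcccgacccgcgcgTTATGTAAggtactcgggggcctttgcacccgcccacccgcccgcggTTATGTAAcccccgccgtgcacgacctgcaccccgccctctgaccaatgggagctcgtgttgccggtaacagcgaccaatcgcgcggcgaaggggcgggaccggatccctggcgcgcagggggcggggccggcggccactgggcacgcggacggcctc

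Arntl, chr7:113207530-113207559, plus strand: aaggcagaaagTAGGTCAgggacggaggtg

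Both strands were searched for the 3 motifs, none of which overlapped another in these stretches. The E-box occurred in the windows of 4 genes, Per1, Cry1, Ciart and Bhlhe41, and 7.15% of all 32851 windows in the table held it. Ciart was the gene with 3 E-boxes, which began at 116, 58 and 44 bases before the start site. The D-box, through which DBP and its relatives activate and NFIL3 represses, occurred in Per1 and, at 2 places, in Per3, against 3.38% of all windows. The ROR element occurred in Arntl, from base 31 of its second start site onwards, against 2.61% of all windows. These are matches of letters, and no binding was measured.

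The targeted gene followed the labels. Apoe averaged 5.44 ± 0.888 RPKM in APPPS1;Apoe-/- cortex (SD, n = 7) and 581 ± 84.2 RPKM in APPPS1 cortex (SD, n = 6), where RPKM are reads scaled to gene length and library depth. Depth ran from 18455493 to 34538031 alignments for APPPS1;Apoe-/- and from 28402328 to 77005806 for APPPS1. Read from Xist and Y-linked genes, 10 libraries were female, and APPPS1;Apoe-/- replicates 1 and 3 and APPPS1 replicate 2 were male. APPPS1;Apoe-/- replicates 2 and 5 stood apart from the 11 others. They had 52.2 and 56.9 RPKM of Thy1, against 172 to 245 RPKM elsewhere, and 106 and 116 RPKM of App, against 176 to 217 RPKM elsewhere. That these 2 libraries carry the transgenes rests on their labels and was not tested. The main results that rest on these libraries are given with and without them. Neuron markers were abundant in every library, with a summed level of 3387 to 4178 RPKM in APPPS1;Apoe-/- cortex and 3389 to 3962 RPKM in APPPS1 cortex. Of 8 markers of the suprachiasmatic nucleus, the master clock in the hypothalamus, 5 passed the filter on low values. None of these was called, against 8.23% of all tested genes.

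**Figure D1:**
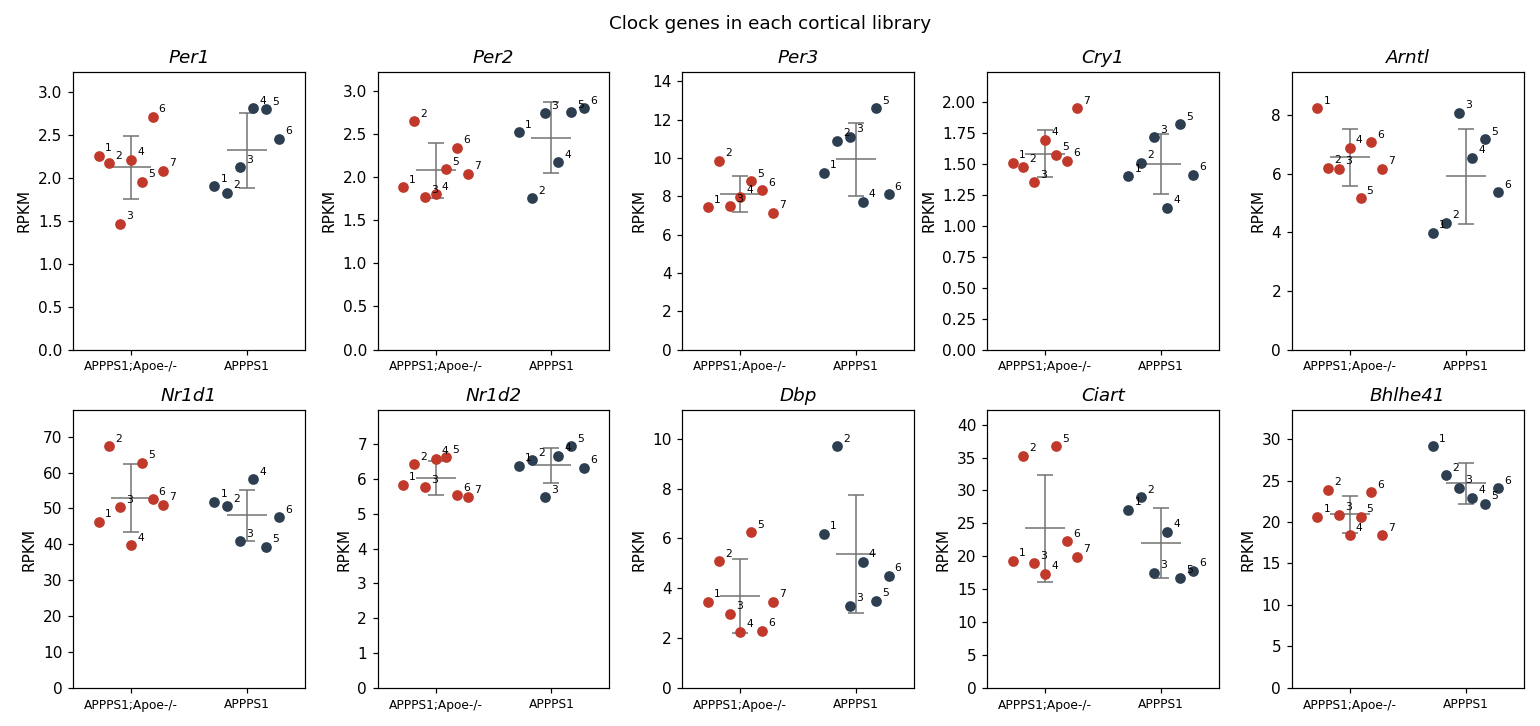
RPKM of the 10 clock genes (y axes, from 0) in each library, APPPS1;Apoe-/- left and APPPS1 right. Points are libraries with their replicate number, and grey bars are the mean and SD. The groups overlap for all 10 genes, and replicates 2 and 5 of APPPS1;Apoe-/- lie above the other libraries of their group for Ciart, Nr1d1 and Dbp.

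Ordered by the mean RPKM over all 13 libraries, Nr1d1 stood highest at 50.7, followed by Ciart at 23.2 and Bhlhe41 at 22.7. Per3 followed at 8.96, Arntl at 6.27, Nr1d2 at 6.20 and Dbp at 4.46. Per2 at 2.25, Per1 at 2.22 and Cry1 at 1.54 were the weakest. Some neighbours in this order could not be separated: Ciart exceeded Bhlhe41 in 5 of 13 libraries, Arntl exceeded Nr1d2 in 7 of 13 and Per2 exceeded Per1 in 6 of 13. All 10 genes passed the filter of a mean of 0.5 RPKM over all libraries.

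None of the 10 clock genes passed the test between the genotypes. Limma was run on log2(RPKM + 0.5) of 13343 genes, and a gene was called at a Benjamini-Hochberg adjusted p under 0.05 over all of them. Of all tested genes 8.23% were called, 3.48% as higher and 4.74% as lower in APPPS1;Apoe-/- cortex. At an unadjusted p under 0.05 the count was 2 of 10, Bhlhe41 and Per3, against 25% of all tested genes. The groups overlapped for all 10 clock genes, while they did not overlap for 3.72% of all tested genes. On the log2 scale 4 of the genes had a positive difference, APPPS1;Apoe-/- minus APPPS1, and 6 a negative one. The median difference of the 10 was -0.09, against -0.01 over all tested genes. The 95% intervals of the 10 differences ran from -0.98 at the lowest bound to 0.51 at the highest.

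Arntl, the activator of the loop, measured 8.25, 6.20, 6.18, 6.89, 5.17, 7.08 and 6.18 RPKM in APPPS1;Apoe-/- replicates 1 to 7, against 4.0, 4.34, 8.10, 6.55, 7.18 and 5.37 RPKM in APPPS1 replicates 1 to 6. The lowest values were those of APPPS1 replicates 1 and 2, and the highest those of APPPS1;Apoe-/- replicate 1 and APPPS1 replicate 3. The difference was 0.17 ± 0.14 on the log2 scale (limma estimate ± SE), with an adjusted p of 0.494. Arntl spread more widely among the APPPS1 libraries (log2 SD of 0.37) than among the APPPS1;Apoe-/- libraries (log2 SD of 0.20), a contrast that was not tested. It lies on chromosome 7, 93.5 Mb from Apoe.

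The Per genes, whose proteins form the repressor complex with CRY proteins, stood lower on average in APPPS1;Apoe-/- cortex without passing the test. Per3 measured 7.42, 9.83, 7.47, 7.93, 8.78, 8.31 and 7.12 RPKM in APPPS1;Apoe-/- cortex, against 9.23, 10.9, 11.1, 7.70, 12.6 and 8.09 RPKM in APPPS1 cortex. Every APPPS1;Apoe-/- library was below the APPPS1 median, and 3 of 7 were below the lowest APPPS1 library. The difference was -0.26 ± 0.10 on the log2 scale, with a limma p of 0.0230 and an adjusted p of 0.130. Per3 is dispensable for the loop itself in mice.

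Per2, which is needed for a stable rhythm, measured 1.88, 2.64, 1.76, 1.80, 2.09, 2.34 and 2.03 RPKM in APPPS1;Apoe-/- cortex, against 2.52, 1.75, 2.74, 2.17, 2.75 and 2.80 RPKM in APPPS1 cortex. Here 6 of 7 APPPS1;Apoe-/- libraries were below the APPPS1 median, yet the lowest library of all was APPPS1 replicate 2. The difference was -0.19 ± 0.10 (log2, limma, adjusted p = 0.244). Per1, a gene induced both by the clock and directly by glucocorticoids, averaged 2.12 ± 0.373 RPKM in APPPS1;Apoe-/- cortex (SD, n = 7) and 2.32 ± 0.436 RPKM in APPPS1 cortex (SD, n = 6). Its libraries spanned 1.47 to 2.71 RPKM in APPPS1;Apoe-/- cortex and 1.83 to 2.82 RPKM in APPPS1 cortex, and the difference was -0.10 ± 0.11 (log2, limma, adjusted p = 0.601). Cry1, the stronger repressor of the 2 CRY proteins, averaged 1.58 ± 0.192 RPKM in APPPS1;Apoe-/- cortex and 1.5 ± 0.242 RPKM in APPPS1 cortex. Its difference was 0.06 ± 0.09 (log2, limma, adjusted p = 0.697).

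Nr1d1, which encodes REV-ERB alpha, measured 46.3, 67.3, 50.3, 39.8, 62.7, 52.6 and 51.0 RPKM in APPPS1;Apoe-/- cortex, against 51.9, 50.6, 40.9, 58.1, 39.4 and 47.6 RPKM in APPPS1 cortex. The highest values belonged to APPPS1;Apoe-/- replicates 2 and 5, the libraries with low Thy1. The difference was 0.13 ± 0.11 (log2, limma, adjusted p = 0.515) with all libraries and 0.004 ± 0.10 without both. Nr1d2 was the steadiest of the 10: it averaged 6.04 ± 0.497 RPKM in APPPS1;Apoe-/- cortex and 6.39 ± 0.498 RPKM in APPPS1 cortex, with a difference of -0.08 ± 0.06 (log2, limma, adjusted p = 0.485). Of the exon bases of Nr1d1, 8.55% overlap those of Thra on the opposite strand, and strand use in counting is not given in the sources used here.

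Dbp, a PAR bZIP factor that carries the rhythm to D-box genes, varied most. It measured 3.45, 5.07, 2.98, 2.24, 6.24, 2.28 and 3.44 RPKM in APPPS1;Apoe-/- cortex, against 6.19, 9.69, 3.29, 5.07, 3.49 and 4.49 RPKM in APPPS1 cortex. The lowest and highest of the 13 libraries differed 4.32-fold, with APPPS1 replicate 2 at the top and APPPS1;Apoe-/- replicate 4 at the bottom. The difference between the genotypes was -0.48 ± 0.24 on the log2 scale (95% interval -0.98 to 0.02, limma, adjusted p = 0.221). Without the pair of libraries with low Thy1 it was -0.73 ± 0.21 (limma, adjusted p = 0.0639), and 3 of the 5 remaining APPPS1;Apoe-/- libraries were below every APPPS1 library. Without them 5.07% of all tested genes were called. With the number of alignments as a covariate the difference was -0.74 (adjusted p = 0.203), and in female libraries alone it was -0.26 (adjusted p = 0.618). Dbp lies on chromosome 7, 26 Mb from Apoe, and 18.0% of its exon bases overlap those of Sphk2 on the opposite strand, so reads of the 2 genes may not have been told apart.

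Ciart, which encodes the repressor CHRONO, measured 19.3, 35.3, 18.9, 17.4, 36.7, 22.2 and 19.9 RPKM in APPPS1;Apoe-/- cortex, against 27.1, 29.0, 17.5, 23.7, 16.7 and 17.8 RPKM in APPPS1 cortex. Replicates 2 and 5 of APPPS1;Apoe-/- lay above every other library, and the remaining 5 of that group lay between 17.4 and 22.2 RPKM. The difference was 0.11 ± 0.19 (log2, limma, adjusted p = 0.753) with all libraries and -0.13 ± 0.13 (limma, adjusted p = 0.613) without both, so its sign rested on them. These 2 libraries also had the lowest summed microglia marker levels of their group, 295 and 339 RPKM, against 550 to 614 RPKM in the other 5 and 778 to 925 RPKM in APPPS1 cortex, and the part of this in the Ciart values was not tested.

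Bhlhe41, which encodes the E-box repressor DEC2, came nearest to the threshold. It measured 20.6, 23.9, 20.9, 18.4, 20.6, 23.6 and 18.4 RPKM in APPPS1;Apoe-/- cortex, against 29.1, 25.7, 24.1, 22.9, 22.2 and 24.1 RPKM in APPPS1 cortex. In APPPS1;Apoe-/- cortex 5 of 7 libraries were below the lowest APPPS1 library, and 4 of 6 APPPS1 libraries were above the highest APPPS1;Apoe-/- library. The difference was -0.23 ± 0.07 on the log2 scale with a limma p of 0.00592 and an adjusted p of 0.0615. It passed under quantile normalization (limma, adjusted p = 0.0371), and without APPPS1;Apoe-/- replicate 2 or 6 (adjusted p = 0.0429 and adjusted p = 0.0451). Over all other settings tried, leaving out each library included, it did not pass. Microglia also express this gene in mice. In APPPS1;Apoe-/- cortex 8 of 12 microglia markers were called lower, against 4.74% of all tested genes, with a median log2 difference of -0.58. Fewer cells of a type and less RNA per cell cannot be told apart in bulk tissue, and the part of these cells in the Bhlhe41 values was not tested. Of the exon bases of Bhlhe41, 19.05% overlap an unnamed gene model on the opposite strand.

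**Figure D2:**
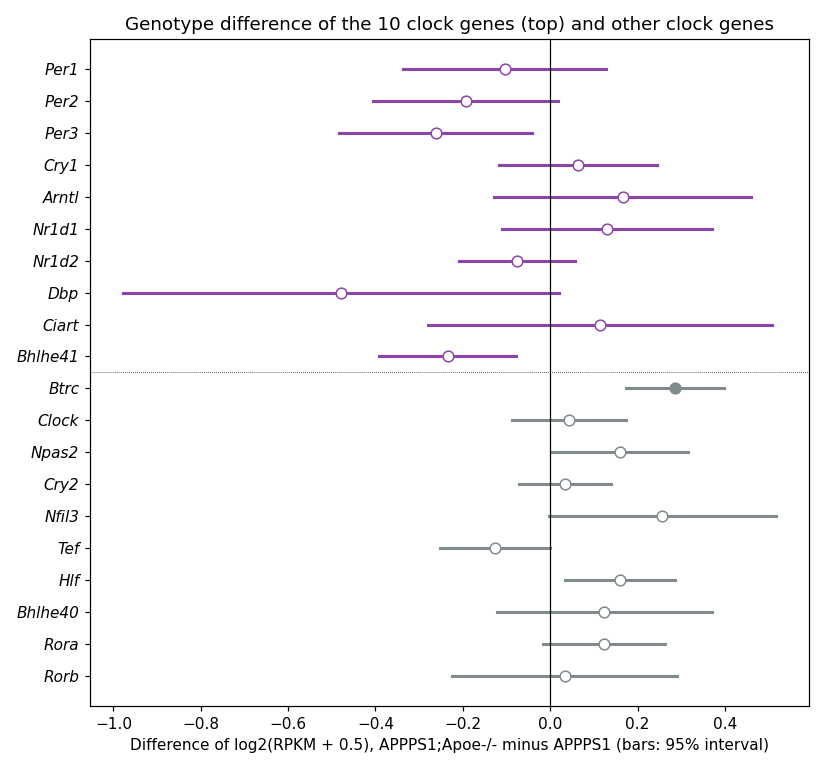
Difference of log2(RPKM + 0.5), APPPS1;Apoe-/- minus APPPS1 (x axis), with 95% intervals from limma for the 10 clock genes above the dotted line and other clock genes below it. Filled points passed an adjusted p under 0.05. Btrc is filled, and all 10 clock genes are open.

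The rest of the pathway was read from a list of other clock genes, of which 23 passed the filter on low values. Of the 23, 1, Btrc, was called as higher in APPPS1;Apoe-/- cortex and 0 as lower, against 3.48% and 4.74% of all tested genes. At an unadjusted limma p under 0.05 the count was 5 of 23, against 25% of all tested genes. The median difference was 0.05 against -0.01 over all tested genes. Btrc, an F-box protein of the ubiquitin ligase that marks PER proteins for breakdown, averaged 17.2 ± 1.03 RPKM in APPPS1;Apoe-/- cortex (SD, n = 7) and 14 ± 0.905 RPKM in APPPS1 cortex (SD, n = 6). The groups did not overlap, as was the case for 3.72% of all tested genes, and the difference was 0.28 ± 0.05 (log2, limma, adjusted p = 0.00419). It was no longer called with the striatal markers as a covariate (0.25, limma, adjusted p = 0.0503). With that covariate the count called over all genes fell from 1098 to 305. Those markers had a median log2 difference of 0.44, with summed levels of 437 to 926 RPKM in APPPS1;Apoe-/- cortex and 334 to 818 RPKM in APPPS1 cortex.

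Among the partners of Arntl, Clock averaged 3.95 ± 0.411 RPKM in APPPS1;Apoe-/- cortex and 3.81 ± 0.142 RPKM in APPPS1 cortex, with a difference of 0.04 ± 0.06 (log2, limma, adjusted p = 0.717). Npas2, which can stand in for Clock in the forebrain, averaged 4.15 ± 0.356 RPKM in APPPS1;Apoe-/- cortex and 3.67 ± 0.443 RPKM in APPPS1 cortex, with a difference of 0.16 ± 0.07 (adjusted p = 0.187). Of the genes that act on ROR elements as activators, Rora differed by 0.12 ± 0.07 and Rorb by 0.03 ± 0.12 (log2, limma, adjusted p = 0.266 and adjusted p = 0.896). The D-box factors stood on both sides: Hlf differed by 0.16 ± 0.06 (adjusted p = 0.106), Tef by -0.13 ± 0.06 (adjusted p = 0.200) and the D-box repressor Nfil3 by 0.26 ± 0.12 (adjusted p = 0.207). Cry2, the second cryptochrome, and Bhlhe40, the close relative of Bhlhe41, differed by 0.03 ± 0.05 and 0.12 ± 0.12 (limma, adjusted p = 0.724 and adjusted p = 0.549).

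The clock genes as a group varied widely between libraries of 1 genotype. The SD around the genotype means was 0.50 on the log2 scale for Dbp, 0.40 for Ciart and 0.29 for Arntl, against a median of 0.13 over all tested genes. These values put Dbp at the 98.7th percentile of all tested genes, Ciart at the 97.7th and Arntl at the 94.3rd. Nr1d1, Per1, Per3 and Per2 followed at the 89.3rd, 86.5th, 85.3rd and 80.8th. Cry1 and Bhlhe41 lay at the 63.8th and 57.7th percentile and Nr1d2 at the 29.7th, below the middle of all genes. Without the pair with low Thy1 the SD was 0.43 for Dbp, 0.27 for Ciart and 0.30 for Arntl, at the 98.4th, 93.9th and 95.7th percentile, against a median of 0.13. That of Nr1d1 was 0.19 without them, at the 82.3rd percentile, and 0.24 with them.

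**Figure D3:**
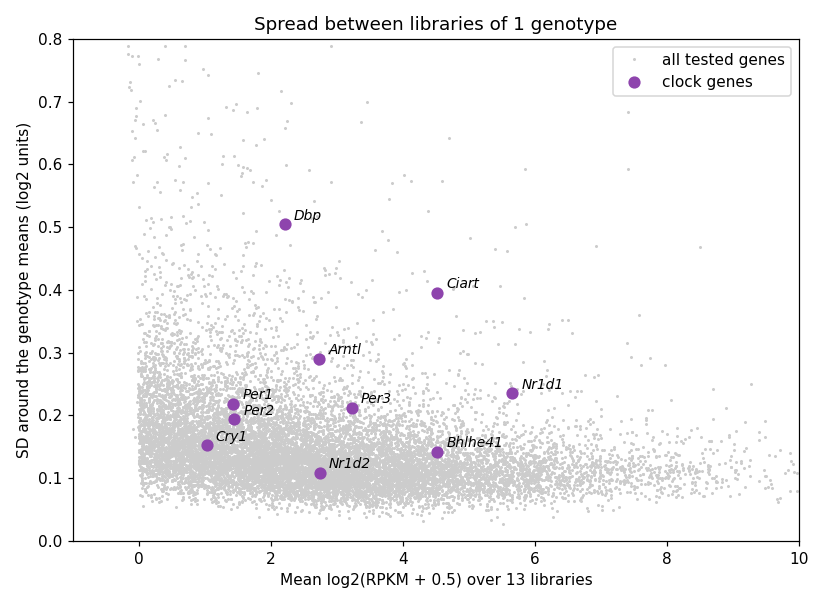
SD of log2(RPKM + 0.5) around the genotype means (y axis) against the mean log2(RPKM + 0.5) over 13 libraries (x axis), for all tested genes in grey and the 10 clock genes in purple. The axes end at 0.8 and 10, and genes beyond them are not drawn. Dbp, Ciart and Arntl lie above most genes of their level, at 0.50, 0.40 and 0.29, and Nr1d2 lies at 0.11.

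The libraries were also set in order by Dbp relative to Arntl. Taken as Dbp minus Arntl on the log2 scale, the libraries of APPPS1;Apoe-/- cortex stood at -1.15, -0.27, -0.94, -1.43, 0.25, -1.45 and -0.76 for replicates 1 to 7, and those of APPPS1 cortex at 0.57, 1.08, -1.18, -0.34, -0.94 and -0.24 for replicates 1 to 6. At the upper end were APPPS1 replicates 1 and 2 and APPPS1;Apoe-/- replicate 5, the libraries in which Dbp exceeded Arntl. At the lower end were APPPS1;Apoe-/- replicates 6, 4 and 1 and APPPS1 replicate 3. The mean was -0.82 in APPPS1;Apoe-/- cortex (range -1.45 to 0.25) and -0.18 in APPPS1 cortex (range -1.18 to 1.08). Without the pair with low Thy1, the 5 remaining APPPS1;Apoe-/- libraries ran from -1.45 to -0.76 with a mean of -1.15, and 0 of the 5 lay above the APPPS1 median. The upper values of that group were thus those of the low-Thy1 libraries. The groups still overlapped, through APPPS1 replicates 3 and 5. Ciart minus Arntl, taken in the same way over all libraries, did not show the gap seen with Dbp. Its mean was 1.76 in APPPS1;Apoe-/- cortex (range 1.18 to 2.71) and 1.81 in APPPS1 cortex (range 1.06 to 2.62).

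**Figure D4:**
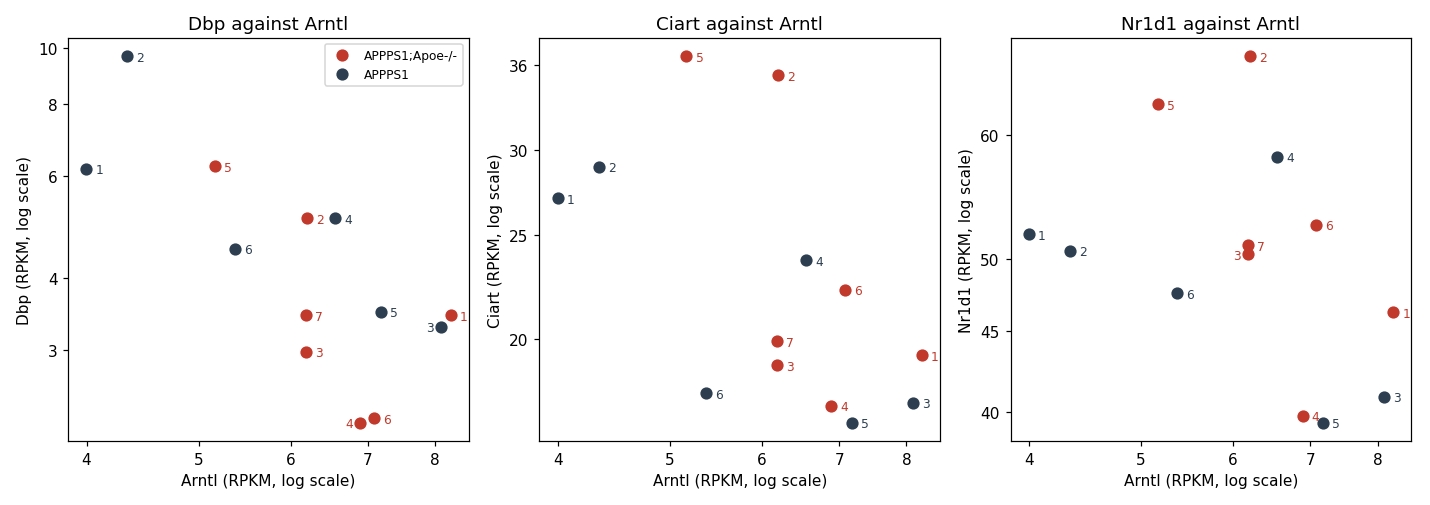
Dbp, Ciart and Nr1d1 (y axes, RPKM, log scale) against Arntl (x axes, RPKM, log scale) in 13 libraries, red for APPPS1;Apoe-/- and dark blue for APPPS1, with replicate numbers. APPPS1 replicates 1 and 2 have the lowest Arntl, 4.0 and 4.34 RPKM, with Dbp at 6.19 and 9.69 RPKM.

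Correlations between the clock genes were computed on log2(RPKM + 0.5) for all 45 pairs, with two-sided permutation tests and Benjamini-Hochberg adjustment over the 45. Across 13 libraries Arntl and Dbp had Pearson's r = -0.760 (permutation p = 0.0023, adjusted p = 0.0513) and Spearman's rho = -0.632 (permutation p = 0.0233, adjusted p = 0.298). Within APPPS1;Apoe-/- cortex r was -0.624 (exact permutation p = 0.128, adjusted p = 0.392, n = 7), and within APPPS1 cortex it was -0.842 (exact permutation p = 0.0333, adjusted p = 0.214, n = 6). Without the 2 libraries farthest from the median of Arntl, APPPS1 replicates 1 and 2, r was -0.566 over 11 libraries. Without the pair with low Thy1 it was -0.754 (permutation p = 0.0083, adjusted p = 0.168). The relation of Arntl and Dbp thus missed the threshold after adjustment and rested in part on APPPS1 replicates 1 and 2.

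Nr1d1 and Ciart moved together. Their r was 0.863 (permutation p = 1.4e-04, adjusted p = 0.0063) and their rho 0.907 (permutation p = 6e-05, adjusted p = 0.0027), which made them the 1 pair of 45 past the threshold over all libraries. Within APPPS1;Apoe-/- cortex r was 0.921 (exact permutation p = 0.0020, adjusted p = 0.0893, n = 7), and within APPPS1 cortex it was 0.763 (exact permutation p = 0.104, adjusted p = 0.426, n = 6). Without the 2 libraries farthest from the median of Nr1d1 it was 0.791. Without the pair with low Thy1 it was 0.718 (permutation p = 0.0138, adjusted p = 0.168), so the call was lost without those libraries.

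Dbp and Ciart had r = 0.698 over all libraries (permutation p = 0.0078, adjusted p = 0.118) and rho = 0.703 (permutation p = 0.0088, adjusted p = 0.199). It was 0.864 within APPPS1;Apoe-/- cortex (exact permutation p = 0.0218, adjusted p = 0.302, n = 7) and 0.918 within APPPS1 cortex (exact permutation p = 0.0028, adjusted p = 0.125, n = 6). On deviations from the genotype means r was 0.875 (permutation within genotype, adjusted p = 0.0112), and Nr1d1 with Ciart gave 0.865 (adjusted p = 0.0112). These were the 2 pairs past the threshold on that measure. Without the pair with low Thy1 the same measure gave 0.797 and 0.748, each with an adjusted permutation p of 0.281. Ciart and Arntl had r = -0.570 (permutation p = 0.0419, adjusted p = 0.336), and Nr1d1 and Arntl r = -0.406 (permutation p = 0.167, adjusted p = 0.470). Per1 stood on the side of Arntl with r = 0.435 (permutation p = 0.137, adjusted p = 0.411). Per2 and Per3 had r = 0.066 and -0.086 with Arntl, and both differed in sign between the genotypes. They also differed in sign with Nr1d1, Ciart and Dbp. Within APPPS1;Apoe-/- cortex, low-Thy1 libraries included, Per2 had r = 0.715 with Ciart, and within APPPS1 cortex -0.821. For Per2 with Dbp these r were 0.396 and -0.869, and for Per3 with Nr1d1 0.722 and -0.788. The contrast between the genotypes was not tested.

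**Figure D5:**
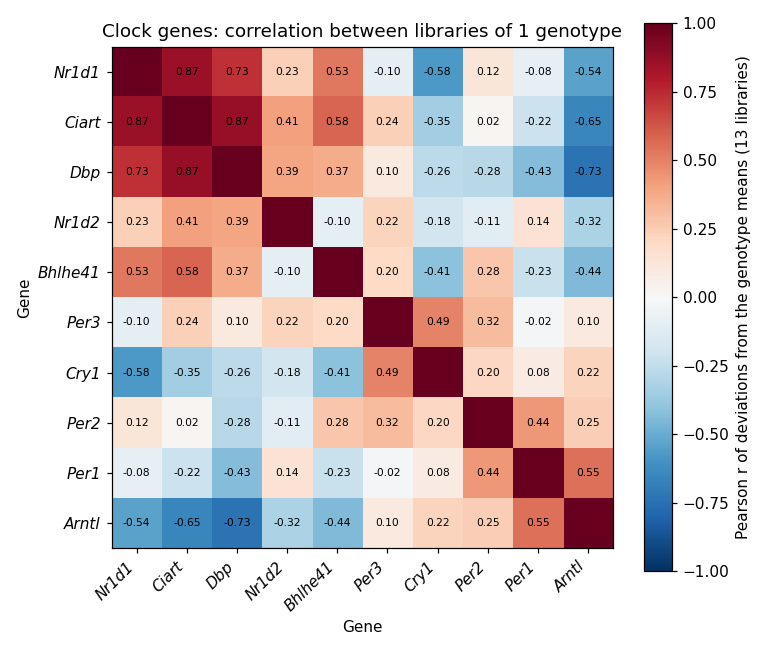
Pearson's r between the 10 clock genes (both axes) on deviations from the genotype means over 13 libraries, red for positive and blue for negative. Nr1d1, Ciart and Dbp form a block with r of 0.73 to 0.87 among themselves, and r of -0.54 to -0.73 with Arntl. Without the pair of libraries with low Thy1, which is not drawn, these r were 0.56 to 0.80 and -0.49 to -0.71. The r within each genotype, which differed in sign for Per2 and Per3 with this block, are not drawn either.

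Ranked by the same deviations over all 13343 tested genes, Ciart was the 7th gene from the top of the list for Dbp counting Dbp itself, with r = 0.875, and Nr1d1 the 81st with r = 0.729. Arntl was 161st from the bottom. Usp2, a clock-controlled deubiquitinase from the list of other clock genes, was 12th with r = 0.845. It measured 15.1, 17.8, 13.1, 14.9, 19.2, 14.6 and 15.4 RPKM in APPPS1;Apoe-/- cortex, against 16, 17.9, 14.3, 16.4, 13.9 and 13.4 RPKM in APPPS1 cortex. Its 3 highest libraries were APPPS1;Apoe-/- replicates 5 and 2 and APPPS1 replicate 2, in which Dbp was at 6.24, 5.07 and 9.69 RPKM. Usp2 was named after its values were seen. The 5 genes outside the clock set with the highest r to Dbp were Gfpt2 (0.954), Ciao1 (0.891), Slx1b (0.887), Nudt8 (0.884) and Trpt1 (0.882). For Arntl they were Eif4ebp2 (0.921), Zfp951 (0.883), Thsd7a (0.880), Dnlz (0.877) and Snx27 (0.847). Nfil3, which is known to run with Arntl as another target of REV-ERB repression, had r = 0.719 with Arntl and -0.558 with Dbp. The rest of the 10 clock genes stood farther from the ends of the list for Dbp. Their r was -0.43 for Per1, -0.28 for Per2, -0.26 for Cry1, 0.0998 for Per3, 0.39 for Nr1d2 and 0.37 for Bhlhe41. The D-box factors Tef and Hlf had r = 0.28 and -0.011 with Dbp, so Usp2 and Nfil3 do not stand for the other clock genes as a whole. These are descriptions over 13 libraries whose labels give no batch, and they carry no p. The ranks were taken with the pair of low-Thy1 libraries included.

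Gene groups that respond to handling, hormones or temperature were set beside the clock genes. Of these signals, glucocorticoids are known to induce Per1 directly. Of all tested genes 8.23% were called, 3.48% as higher and 4.74% as lower, and 25% had an unadjusted limma p under 0.05. None of 14 immediate early genes was called, at an adjusted or an unadjusted p under 0.05 in limma, and their median difference was -0.002. Of 16 glucocorticoid-induced genes 9 were called as higher in APPPS1;Apoe-/- cortex and 0 as lower, with a median log2 difference of 0.47. Without the pair with low Thy1 8 were called, against 5.07% of all tested genes. Tsc22d3, which encodes the glucocorticoid-induced leucine zipper, averaged 105 ± 20.02 RPKM in APPPS1;Apoe-/- cortex (SD, n = 7) and 45.4 ± 10.2 RPKM in APPPS1 cortex (SD, n = 6), a log2 difference of 1.20 ± 0.14 (limma, adjusted p = 8.77e-05). Klf9, a transcription factor induced by glucocorticoids, averaged 41.2 ± 2.97 RPKM in APPPS1;Apoe-/- cortex and 30.1 ± 2.22 RPKM in APPPS1 cortex (0.45 ± 0.06, limma, adjusted p = 3.26e-04). Per1, also a target of the glucocorticoid receptor, differed by -0.10 ± 0.11 between the same libraries. Of 11 temperature-responsive genes 1, the chaperone gene Hspa8, was called, at 2332 ± 124 RPKM in APPPS1;Apoe-/- cortex and 1878 ± 138 RPKM in APPPS1 cortex (0.31 ± 0.06, limma, adjusted p = 0.00409). The part of hormone state or of the hour of collection in any of these values was not tested, and with no collection time in the labels the hour and the genotype cannot be told apart.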

How the data were processed

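RNA sequencing of cortex from 13 mice was analysed. The authors deposited RPKM values per gene for all libraries in 1 table, together with the number of alignments in each. Per the labels' protocols, RNA was extracted with Trizol and libraries were made with the Clontech SMARTer kit. Per the submitters' processing notes, Partek and mm10 were used. Of strand use, aligner and counting rule none is given in the sources used here. RPKM removes depth but keeps its sampling error, which is larger in shallow libraries and weak genes.

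Genes averaging at least 0.5 RPKM, 13343 in all, entered limma 3.58.1 under R 4.3.3 (lmFit, eBayes with trend) as log2(RPKM + 0.5), with genotype as the only term, and p-values were two-sided and adjusted by the Benjamini-Hochberg method. Correlations used 100000 permutations, or all 720 or 5040 orders within a genotype. The code was tested on simulated data. Nothing in the labels says that the libraries share no litter, so p-values measure the spread between these samples. Replicates are numbered in accession order and do not pair samples.

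The 10 genes and all lists were chosen with earlier results of these data known. The text names these 10, other clock genes that were called or belong to a fixed set (Clock, Npas2, Cry2, Nfil3, Tef, Hlf, Bhlhe40, Rora and Rorb), up to 3 called genes of each list beside them (otherwise the 2 with the smallest p), Apoe, App and Thy1, and the 5 genes most like Dbp or Arntl, and Usp2 was added. Some items are not reported here. Lists of markers were described by counts without a set test. Other pseudocounts, filters, scalings, variance models, covariates and left-out libraries were tried. Gene positions are those of GENCODE mouse release 21. Python 3.11.15 with numpy 2.4.6, pandas 2.3.3, scipy 1.17.1 and matplotlib 3.10.9 was used.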

Additional observations from a re-analysis of the deposited data

Results flagged for a closer look

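Dixon's criterion for a sample far from the others of its group was applied to 62 sets of values of the named genes, and 3 were past it, while chance flags about 1 in 20 such sets. None was a value of the 10 clock genes. The criterion sets the farthest value against its nearest neighbour, so 2 libraries that lie apart together can go unflagged. APPPS1;Apoe-/- replicates 2 and 5 lay apart in this way for Thy1 and Ciart, and neither gene was flagged. Sgk1, a kinase gene induced by glucocorticoids, reached 48.5 RPKM in APPPS1 replicate 5, where the remaining APPPS1 libraries had 20.7 to 27.7 RPKM. Npas4, an activity-dependent immediate early gene, reached 4.71 RPKM in APPPS1 replicate 6, while the others of its group had 0.417 to 0.857 RPKM. Junb, another immediate early gene, was at 3.95 RPKM in the same library, against 1.55 to 2.0 RPKM. Per1, which such signals are also known to induce, was at 2.80 RPKM in APPPS1 replicate 5, the 2nd highest of the 13 libraries. It was at 2.46 RPKM in APPPS1 replicate 6, the 4th highest. The highest Per1 value, 2.82 RPKM, was that of APPPS1 replicate 4, which was not flagged. Sgk1 was highest in APPPS1;Apoe-/- replicate 5, at 67.2 RPKM, where Per1 stood 10th at 1.96 RPKM. The part of such signals in the Per1 values was not tested.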

How the results depend on the processing

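Of 260 differences of the 10 clock genes under 26 other settings, 254 kept their direction and their side of the threshold, 3 came to pass it and 3 changed sign. The count called among the 10 was 0, and 1 (Bhlhe41) with quantile normalization, and leaving out each library gave 0 to 1. Among other clock genes it was 1, 0 with the striatal markers as a covariate and 1 to 2 when each library was left out (Hlf without APPPS1 replicate 4, Nono without APPPS1;Apoe-/- replicate 4). Over all genes 1098 were called, against 678 without both low-Thy1 libraries, 202 with alignments as a covariate, 305 with the striatal markers and 478 in female libraries, a setting added after seeing the data, and leaving out each library gave 699 (without APPPS1 replicate 6) to 1596. Signs turned for Ciart (-0.13 without both low-Thy1 libraries, -0.086 with alignments), Nr1d1 (-0.026 with alignments), Clock (-0.012 in females), Cry2 (-0.013 without both low-Thy1 libraries, -0.034 with striatal markers) and Rorb (-5.6e-04 with sex as a covariate, -0.076 in females, -0.042 to 0.098 when each library was left out), none of which was called. The count of genes correlated with Arntl was 0, and 1, Dbp, with a pseudocount of 1 or quantile normalization. The r of Per2 with Arntl turned to -0.20 within APPPS1;Apoe-/- cortex, -0.012 without the 2 farthest libraries, -0.0025 in females and -0.15 to 0.24 when each library was left out. That of Per3 turned to 0.27 within APPPS1 cortex, 0.25 without the 2 farthest, 0.26 in females, 0.099 on deviations and -0.28 to 0.097 when each was left out. That of Cry1 was -0.083 within APPPS1;Apoe-/- cortex, and that of Bhlhe41 0.035 there and 0.060 without the 2 farthest. The cause of these changes was not tested. No paired analysis was possible because the replicate numbers follow accession order and tie no samples together. Depth is known only as alignments per library, so no counting error per gene can be given.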

Other observations

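The library titles carry numbers whose meaning the labels do not give, and the clock genes were set against them after their values had been seen. In APPPS1 cortex, Arntl stood at 7.18, 8.10, 6.55, 5.37, 4.34 and 4.0 RPKM in the libraries with title numbers 22, 30, 49, 57, 67 and 70, and Dbp at 3.49, 3.29, 5.07, 4.49, 9.69 and 6.19 RPKM in the same libraries. Arntl was lower, and Dbp higher, in libraries with higher numbers. Arntl had r = -0.930 (exact permutation p = 0.0153, n = 6) and rho = -0.943 (exact permutation p = 0.0167), and Dbp had r = 0.841 (exact permutation p = 0.0347) and rho = 0.829 (exact permutation p = 0.0583). Over the 20 relations computed, 10 genes in each of 2 genotypes, the smallest adjusted p was 0.296 for r and 0.265 for rho, so none passed. Without the 2 numbers farthest from the median, r over the 4 remaining libraries was -0.999 for Arntl and 0.650 for Dbp. The same step turned r from -0.532 to 0.819 for Per3 and from 0.752 to -0.481 for Nr1d1. An r over so few libraries is thus not steady. Among the 10 genes Arntl had the rho of largest size in APPPS1 cortex. A rho of at least that size was found for 2.58% of all 13343 tested genes. That share is for single genes, while Arntl was picked as the largest of 10.

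In APPPS1;Apoe-/- cortex Arntl stood at 8.25, 6.20, 5.17, 6.18, 7.08, 6.89 and 6.18 RPKM in the libraries numbered 388, 390, 391, 402, 403, 415 and 416, with r = -0.013 (exact permutation p = 0.978, n = 7). Dbp stood at 3.45, 5.07, 6.24, 3.44, 2.28, 2.24 and 2.98 RPKM in them, with r = -0.717 (exact permutation p = 0.0758, adjusted p = 0.296), the opposite sign to that in APPPS1 cortex. Without the 2 numbers farthest from the median, r over the 5 remaining libraries was 0.711 for Arntl and -0.894 for Dbp. The rho of Dbp, -0.75, was the largest in size among the clock genes there, and 9.20% of all tested genes had a rho of at least that size. The pair of libraries with low Thy1 carried the neighbouring numbers 390 and 391. The numbers of the 2 genotypes do not overlap, so anything they stand for cannot be told apart from genotype.

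Markers of other cell types were counted in the same fit (limma, adjusted p under 0.05). Of all tested genes 3.48% were called as higher and 4.74% as lower. Without the pair of libraries with low Thy1 5.07% were called. Of 10 oligodendrocyte markers 4 were called as higher in APPPS1;Apoe-/- cortex and 0 as lower, with a median log2 difference of 0.27, and without the pair of libraries with low Thy1 1 was called as higher. Of 10 astrocyte markers 1 was called as higher and 2 as lower (median 0.09), and without the pair 0 as higher and 1 as lower. Of 10 endothelial markers 2 were called as higher and 1 as lower (median -0.02), with the same counts without the pair. Of 10 neuron markers 1, Slc17a7, was called as lower (median -0.03), and of 10 striatal markers 1, Pde10a, as higher. Neither list had a call without the pair. Of 10 cortical layer markers and 3 tested choroid plexus markers 0 were called. At an unadjusted p under 0.05 the counts were 7 oligodendrocyte, 7 astrocyte, 4 endothelial, 3 neuron, 8 striatal, 2 cortical layer and 1 choroid plexus markers, against 25% of all tested genes.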
